A study of Mus musculus with 14 samples.

Results

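The 6 genes described here, *Slamf1*, *Cd38*, *Klrb1c*, *Gpr183*, *Ehd3* and *Plscr2*, belong to the transcripts that are higher in aged murine haematopoietic stem cells (HSCs), and each encodes a protein of the cell surface or of cellular membranes. They were taken by name from that ageing signature. All 6 of 6 were listed among the 1043 genes of the comparison of transplanted old and young HSCs, and 1 of them, *Gpr183*, was also listed among the 583 genes of the *Clu* knockout comparison. The libraries were bulk RNA-seq of sorted HSCs, and the values are FPKM, which scales fragments to transcript length and to the mapped total, so that levels can be set against each other between genes. The ageing table held only genes that the study had called higher in old than in young HSCs from the same libraries. The upward direction of its genes was therefore largely fixed by that selection. In the fit used here, 10 of the 1043 were still past the limits set out below as lower in old HSCs. The knockout table held genes from the study's list of genes that differed in either direction. The p-values below restate part of these selections and are not independent evidence.

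In the ageing comparison, the donor cells were taken to be wild-type C57BL/6J HSCs. The methods list such mice at 2 months and at more than 18 months, but do not name the donors of this comparison. HSCs of old mice (o_Tx, n = 4, taken as older than 18 months) or of young mice of 2 months (y_Tx, n = 3) were transplanted. The CD45.1 recipients were 2 months old, and the donor-derived HSCs were sorted from bone marrow 4 months later. In the knockout comparison, every library came from HSCs of 24-month-old Rosa26-Cas9 mice, which therefore all carried the nuclease. These cells received a lentivirus with an mCherry marker and guides against *Clu* (o_sgClu, n = 4) or control guides (o_sgCtrl, n = 3), and mCherry+ donor HSCs were collected from 2-month-old CD45.1 recipients after 4 months. Nothing in the labels ties a library to 1 recipient, so the p-values measure the spread between these libraries.

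HSCs sit at the top of blood formation, and with age they become more numerous while their output shifts towards myeloid cells. Surface proteins set what an HSC can bind, sense and take up, and they are also the handles by which stem cells are sorted. The HSC gate of the study was Lin- Sca1+ cKit+ CD48- CD150+, and CD150 is the protein that *Slamf1* encodes, so *Slamf1* levels were read in cells that had been chosen for its product. In bulk samples, more cells of a kind and more RNA per cell cannot be told apart.

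The members lie on 6 different chromosomes (GRCm38, GENCODE M21). *Slamf1* is on chromosome 1 from 171767127 to 171801184 on the plus strand with 7 exons in its longest coding transcript. *Cd38* is on chromosome 5 from 43868553 to 43912375 on the plus strand with 8 exons. *Klrb1c* is on chromosome 6 from 128778485 to 128789215 on the minus strand with 6 exons, and exons of *Gm44511* on the same strand overlap it. *Plscr2* is on chromosome 9 from 92275602 to 92297752 on the plus strand with 8 exons. *Gpr183* is on chromosome 14 from 121952551 to 121965195 on the minus strand with 2 exons, inside *Ubac2*, which runs on the opposite strand. *Ehd3* is on chromosome 17 from 73804134 to 73832094 on the plus strand with 6 exons. Of the 50-base words in the longest coding transcript, 18.1% recurred in transcripts of other genes for *Klrb1c*, mostly in *Gm44511* and next in its paralogue *Klrb1a*, and 1.43% did for *Cd38*. The share was 0% for *Slamf1*, *Gpr183*, *Ehd3* and *Plscr2*. How reads shared between genes were assigned is not given in the sources used here, so the level of *Klrb1c* is the least certain of the 6.

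The sequence in front of *Gpr183* is shown because *Gpr183* was the only member listed in both comparisons. It covers the 250 bases upstream of the annotated start, chr14:121965194-121965443 on the minus strand (RefSeq, GRCm38.p6), and 2 of these bases fall in a GENCODE exon. The capitals mark a match to TTGCNNAA, the core of the palindromic motif bound by C/EBP factors, which direct myeloid genes.

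Gpr183: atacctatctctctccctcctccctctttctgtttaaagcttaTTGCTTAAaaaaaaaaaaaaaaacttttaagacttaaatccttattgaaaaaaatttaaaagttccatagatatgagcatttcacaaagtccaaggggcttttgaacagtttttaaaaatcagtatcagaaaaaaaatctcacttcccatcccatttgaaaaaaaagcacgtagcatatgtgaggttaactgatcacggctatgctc

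The match lay 207 to 200 bases before the start. Of 32851 annotated promoters of the same length, 9.56% held TTGCNNAA on either strand, and the share was 9.48% of the 854 promoters that matched genes of the ageing table. The *Gpr183* stretch had 32% G and C, against a median of 52.4% over all promoters. Of the 5 members with a promoter entry, *Cd38* held AGATAA in its stretch, a letter pattern bound by GATA factors that 9.99% of promoters held, and *Klrb1c* held TGTGGT, a RUNX pattern that 14% held. None of the 5 held TGANTCA (the AP-1 pattern, in 6.75% of promoters) or CCGGAAG (an ETS pattern, in 6.91%) on either strand. For *Cd38* and *Ehd3* all 250 bases fall in GENCODE exons, which begin further upstream than the RefSeq start, so the *Cd38* match lies within a GENCODE exon. *Plscr2* had no entry.

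*Plscr2* differed most between old and young HSCs of all members. It encodes a member of the phospholipid scramblase family, membrane proteins named for moving lipids between the leaflets of the plasma membrane. It stood at 30.4, 29.1, 38.3 and 24.2 FPKM in o_Tx replicates 1 to 4 and at 3.89, 2.43 and 2.46 FPKM in y_Tx replicates 1 to 3. Every old library was above every young one, and the lowest old value was 6.23 times the highest young value. The means were 30.5 ± 5.84 FPKM (SD, n = 4) and 2.92 ± 0.836 FPKM (SD, n = 3), a ratio of 10.4. On the log2(FPKM + 1) scale, which understates changes of low genes, the difference was 3.01 (SE 0.24, limma adjusted p = 7.51e-05), the sixth-largest rise of the 1043 genes (rank 6). The exact permutation test on log2 means over the 35 ways to divide the 7 libraries gave a two-sided p of 0.0571 when the smaller tail was doubled, the smallest that this form allows and the form used below. Counted by the size of the difference in either direction, the exact p was 0.0286.

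The gene next to it moved in the same direction. *Plscr1*, the family's founding member, ends 3.32 kb before *Plscr2* on the same strand (chromosome 9, 92249750 to 92272278), and the longest coding transcript of *Plscr2* shared no 50-base word with it or with any other gene. *Plscr1* was at 93.1, 88.8, 75.6 and 56.4 FPKM in o_Tx and at 28.9, 22.6 and 15.8 FPKM in y_Tx, a log2 difference of 1.78 (SE 0.27, limma adjusted p = 0.00223). *Plscr2* reached 0.326, 0.328, 0.507 and 0.429 of the *Plscr1* level in the old libraries and 0.135, 0.108 and 0.156 in the young. This ratio is taken within a library and does not depend on how libraries were scaled. The old and young ratios did not overlap (log2 difference 1.58, exact permutation p = 0.0571, two-sided, the smallest with the tail doubled). The ratio was chosen after these values were seen, so its p-value is not independent evidence. *Plscr1* and *Plscr2* were the only listed genes of the 25 on a list of scramblases and flippases, and both were past the limits.

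**Figure D1:**
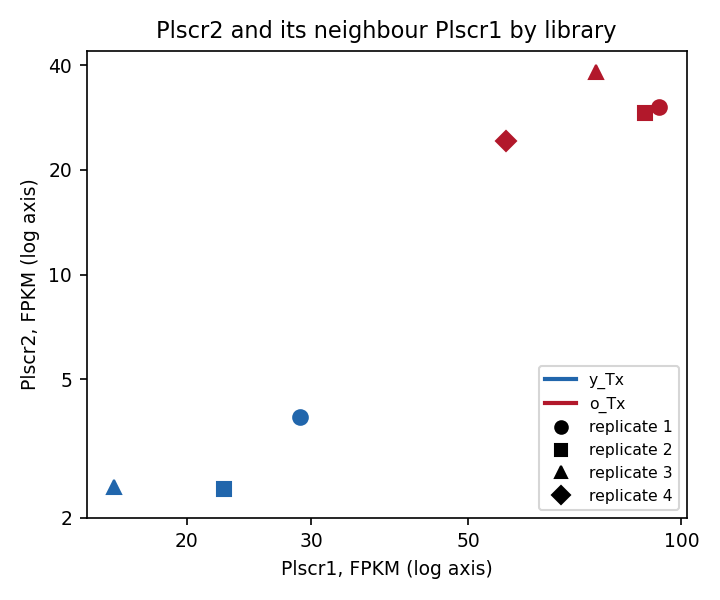
*Plscr2* (y axis, FPKM, log axis) against its neighbour *Plscr1* (x axis, FPKM, log axis) in each of the 7 libraries, with colour for the group and shape for the replicate number. The 4 old libraries lie above 24 FPKM of *Plscr2* and the 3 young ones below 4 FPKM, and no old library falls among the young on either axis.

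*Gpr183* came next in size. It encodes a G protein-coupled receptor (EBI2) for oxysterols, by which B cells and dendritic cells are guided within lymphoid tissue. Its levels were 9.01, 4.57, 5.01 and 2.42 FPKM in o_Tx and 0.421, 1.5 and 0.575 FPKM in y_Tx. The groups did not overlap, although o_Tx replicate 4 came close to y_Tx replicate 2. The means were 5.26 ± 2.75 FPKM (SD, n = 4) and 0.831 ± 0.581 FPKM (SD, n = 3), a ratio of 6.33 and a log2 difference of 1.71 (SE 0.35, limma adjusted p = 0.00992, exact permutation p = 0.0571).

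*Klrb1c* was low in all libraries and rose as well. It encodes NK1.1, a C-type lectin-like receptor by which natural killer (NK) cells of C57BL/6 mice are recognised. It was at 1.24, 3.14, 2.4 and 0.679 FPKM in o_Tx and at 0.0817 and 0.502 FPKM in y_Tx replicates 1 and 2, and y_Tx replicate 3 was listed at 0. No young library reached the lowest old one. The log2 difference was 1.20 (SE 0.32, limma adjusted p = 0.0225, exact permutation p = 0.0571). Of 16 NK cell genes, the table listed 2, *Klrb1c* itself and *Gzmb*, which encodes granzyme B. *Gzmb* ranged from 1.23 to 9.58 FPKM in o_Tx and from 0 to 0.848 FPKM in y_Tx (log2 difference 1.87, SE 0.5, limma adjusted p = 0.0211). Both genes rose in the direction for which the table's genes had been selected, so their joint rise says nothing of NK genes as a set. The other 14 are not in the table and have no level here, none of 12 T cell genes was listed, and the part of NK cells in the *Klrb1c* difference was not tested. Of 22 killer cell lectin-like receptor genes, *Klrb1c* was the only one listed.

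*Slamf1*, *Ehd3* and *Cd38* formed the low end, with differences under 1 on the log2 scale. *Slamf1* encodes CD150, a self-binding receptor of the SLAM family. Its levels were 3.93, 2.69, 3.08 and 4.21 FPKM in o_Tx and 1.42, 3.29 and 0.762 FPKM in y_Tx. The groups overlapped, since y_Tx replicate 2 was above o_Tx replicates 2 and 3. The means of 3.48 ± 0.709 (SD, n = 4) and 1.82 ± 1.31 FPKM (SD, n = 3) gave a log2 difference of 0.75 (SE 0.31) with an unadjusted limma p of 0.0328 and an adjusted p of 0.0634. The exact permutation p was 0.171. Blocking on the replicate number, which gives no weight to o_Tx replicate 4, gave 0.67 with an unadjusted limma p of 0.0706. The call also ended without o_Tx replicate 1 (0.70), replicate 3 (0.79) or replicate 4 (0.67), and without y_Tx replicate 1 (0.69) or replicate 3 (0.46). *Slamf1* was the only 1 of 13 genes of the SLAM family and its adaptors in the ageing table.

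*Ehd3* encodes an Eps15 homology domain ATPase that bends and severs membrane tubules of the recycling endosome. It was at 1.02, 1.54, 1.09 and 1.41 FPKM in o_Tx and at 0.271, 0.745 and 0.567 FPKM in y_Tx. All old libraries were above all young ones, but the gap was narrow. The means were 1.27 ± 0.249 (SD, n = 4) and 0.528 ± 0.239 FPKM (SD, n = 3), with a log2 difference of 0.57 (SE 0.22) and an adjusted limma p of 0.0548 (unadjusted p 0.0229). Without o_Tx replicate 2 the difference was 0.52 and without y_Tx replicate 1 it was 0.45, and the call was lost in both fits. Of 24 genes of the EHD family and recycling endosome, 4 were listed, and *Ehd3*, *Rab8a* (0.60) and *Necap2* (0.79) were past the limits while *Rab11b* was not (0.55, SE 0.36, limma adjusted p = 0.178).

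*Cd38* was the lowest of the 6 in old HSCs and the only member not past the limits. It encodes an ectoenzyme that consumes NAD+ and is itself a differentiation marker of blood cells. Its levels were 1.61, 0.462, 0.918 and 0.387 FPKM in o_Tx and 0.407, 0.18 and 0.258 FPKM in y_Tx. One old library, replicate 4, fell below y_Tx replicate 1. The log2 difference was 0.48 (SE 0.26, unadjusted limma p 0.0928, adjusted p = 0.116, exact permutation p = 0.114) although the ratio of means was 3. *Cd38* was past the limits with the replicate block (0.60, limma adjusted p = 0.0453) and without o_Tx replicate 4 (0.60, limma adjusted p = 0.0779). The block gives that library no weight, so the difference is the same in both. With a pseudocount of 0.1 FPKM *Cd38* was past them too (1.17). Of 28 genes of NAD metabolism, 3 were listed. *Nmrk1*, a nicotinamide riboside kinase, differed by 0.65, and *Sirt2*, an NAD-dependent deacetylase, by 0.67, and both were past the limits.

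**Figure D2:**
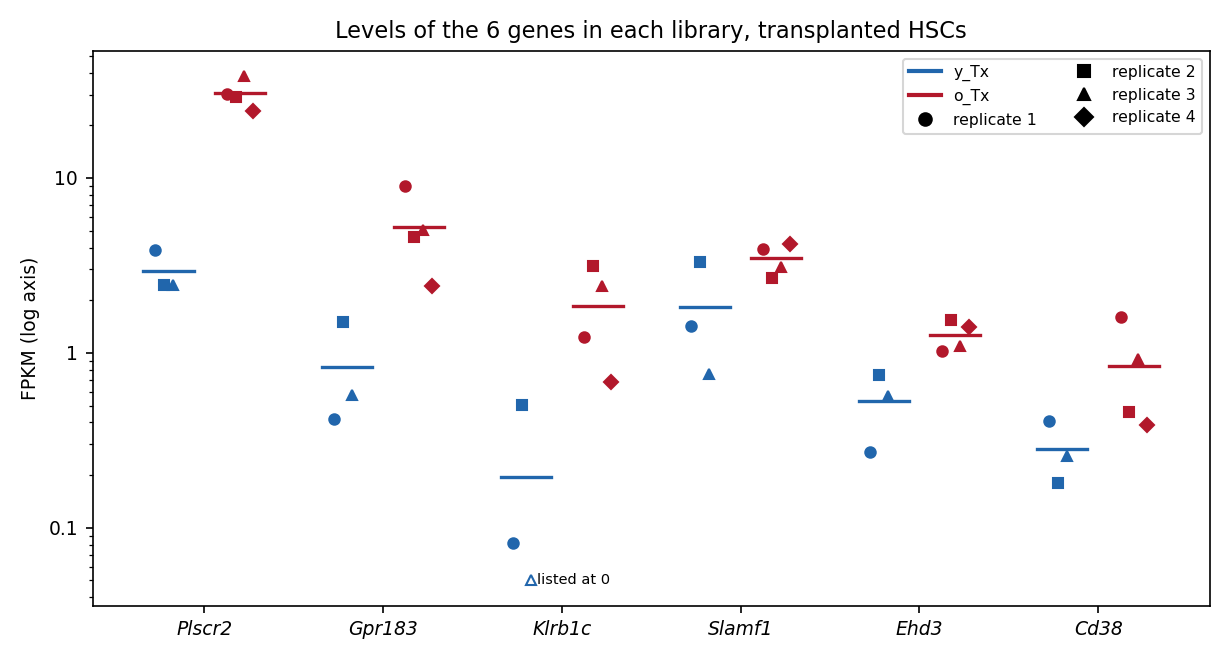
FPKM of the 6 genes (y axis, log axis) in each library of y_Tx (blue, n = 3) and o_Tx (red, n = 4), with a line at each group mean and shapes for replicate numbers. The open triangle at the bottom is *Klrb1c* in y_Tx replicate 3, listed at 0 and drawn at an arbitrary height. The groups are apart for *Plscr2*, *Gpr183*, *Klrb1c* and *Ehd3* and overlap for *Slamf1* and *Cd38*.

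All 6 means were higher in old HSCs, the direction for which the table's genes had been selected. The study had called all listed genes with DESeq2, whereas the calls here come from the limma fit. In that fit, 5 of the 6 genes passed the study's cut-offs of unadjusted p under 0.05 and a log2 difference past 0.5. Of the 1043 listed genes, 62.5% passed as higher in o_Tx. With adjusted p-values 3 of 6 did (*Plscr2*, *Gpr183* and *Klrb1c*), against 37.3% of the table. The groups were free of overlap for 4 of 6 members and for 49.7% of the table. These shares are near those of the whole table. The median log2 difference was 0.97 over the members and 0.70 over all listed genes. The members were expressed weakly, since the median listed gene stood at 11 FPKM in o_Tx and 5.91 FPKM in y_Tx, while only *Plscr2* was above 11 FPKM in the old libraries and 4 members had y_Tx means under 1 FPKM.

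The order of the levels changed with the group. By mean level in old HSCs it was *Plscr2*, *Gpr183*, *Slamf1*, *Klrb1c*, *Ehd3* and *Cd38*, and only *Plscr2* and *Gpr183* were neighbours whose ranges did not overlap. In young HSCs it was *Plscr2*, *Slamf1*, *Gpr183*, *Ehd3*, *Cd38* and *Klrb1c*, with all neighbouring ranges overlapping. Among old libraries, replicate 4 was the lowest for 4 of 6 members (*Plscr2*, *Gpr183*, *Klrb1c* and *Cd38*) and the highest for *Slamf1*. Among young libraries, replicate 2 was the highest for 4 of 6 members (*Gpr183*, *Klrb1c*, *Slamf1* and *Ehd3*) and the lowest for *Plscr2* and *Cd38*.

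The size of every difference depended on how libraries were scaled. The listed genes summed to 71628 to 84123 FPKM in o_Tx and to 42199 to 54607 FPKM in y_Tx, and 652 of them were past the limits as higher in o_Tx. Rescaling by the median ratio over the listed genes moved their median difference from 0.70 to 0.07, and scaling to equal column totals moved it to 0.19. Both scalings rest on genes chosen as higher in old HSCs, so they take out a rise that these genes largely share through that choice. A call lost under them does not show that the gene did not differ. *Plscr2* then differed by 2.30 and 2.44, *Gpr183* by 1.20 and 1.30, and *Klrb1c* by 0.92 and 0.98, and these 3 stayed past the limits. Of all 1043 listed genes, 124 and 151 were past the limits as higher under the same 2 scalings. *Slamf1* (0.21 and 0.31) and *Ehd3* (0.20 and 0.28) were no longer past them, and *Cd38* (0.22 and 0.27) was not either. All 6 kept their direction under both. Among other listed genes of the same pathways, *Nmrk1* (-0.06), *Sirt2* (-0.09), *Rab8a* (-0.19) and *Rab11b* (-0.24) turned below 0 under the median ratio, and *Necap2* was at 0.00. Under column totals *Nmrk1* (0.08), *Sirt2* (0.05) and *Necap2* (0.15) were above 0, while *Rab8a* (-0.05) and *Rab11b* (-0.1) were not. *Plscr1* kept its direction under both (0.98 and 1.13). How many of all listed genes kept their direction was not counted.

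**Figure D3:**
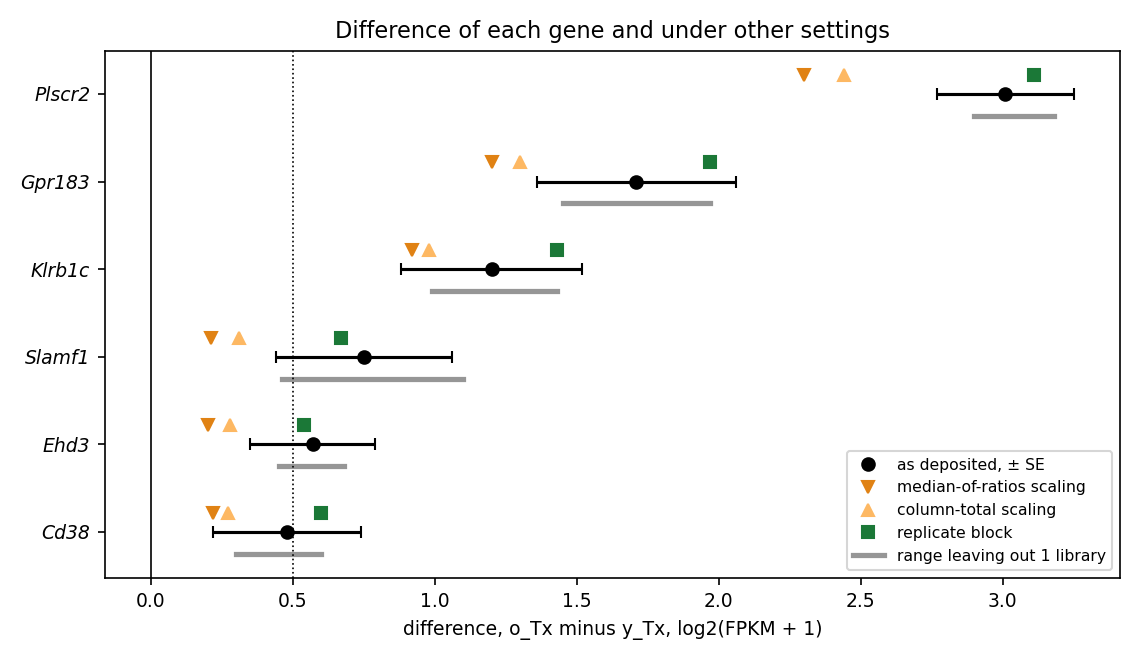
Difference of each gene between o_Tx and y_Tx on the log2(FPKM + 1) scale (x axis), with black points and bars for the value as deposited ± SE, coloured symbols for other scalings and for the replicate block, and grey bars for the range when 1 library is left out. The dotted line is the limit of 0.5. *Plscr2*, *Gpr183* and *Klrb1c* stay to the right of it under all settings shown, while *Slamf1* and *Ehd3* move to its left under both rescalings and *Cd38* is already left of it as deposited.

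Genes whose profile over the 7 libraries was closest to a member were found by the mean absolute difference of centred log2(FPKM + 1) values. *Slamf1* was nearest to *Mthfsd* (0.16) and *Cap1* (0.167), *Ehd3* to *Pars2* (0.087) and *Myo7a* (0.097), and *Cd38* to *Tnip3* (0.106) and *Nicn1* (0.113). *Klrb1c* was nearest to *Abhd6* (0.188) and *Kel* (0.198), and *Gpr183* to 1700006J14Rik (0.213) and *Hormad2* (0.265). *Plscr2* had no profile as near, with *Gm15387* (0.329) and *Gm7336* (0.361) the closest. Between members, *Slamf1* and *Ehd3* were closest (0.311) and *Cd38* and *Plscr2* farthest apart (1.24).

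Of 37 other genes taken as surface protein genes of the ageing signature, 7 were listed and 6 of these were past the limits. Over all listed genes that share was 62.5%. The 6 include *Gem* (0.69), which encodes a GTP-binding protein and not a surface protein. *Ramp2*, an accessory protein of the calcitonin receptor family, differed by 2.25 (SE 0.54, limma adjusted p = 0.0155) with values from 2.55 to 20.4 FPKM in o_Tx and from 0 to 0.704 FPKM in y_Tx. *Tm4sf1*, a tetraspanin-like protein, ranged from 0.708 to 3.3 FPKM in o_Tx and was listed at 0 in all young libraries (limma adjusted p = 0.0109). *Procr* (EPCR, a marker of HSCs) differed by 0.90 and *Esam*, an adhesion molecule of HSCs, by 0.61, and under the median ratio they stood at 0.18 and -0.12. Under the median ratio and column totals, 124 and 151 of all 1043 listed genes were past the limits as higher. Under either, 2 of 7 stayed past them over this list. Its median difference was 0.90, against 0.59 for the EHD list, 0.65 for the NAD list, 0.52 for the 3 listed oxysterol and chemoattractant receptors and 0.70 for all listed genes.

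Markers of HSCs and of other cells also stood higher in old libraries, the direction for which the table's genes had been selected. Their counts are to be read against the 62.5% of all listed genes past the limits. Of 20 genes of long-term HSC identity the table listed 4, all past the limits as higher in o_Tx (summed level 171 to 192 FPKM against 82.5 to 115 FPKM in y_Tx), and the other 16 have no level here. All 7 listed of 13 mast cell and basophil genes were past the limits (summed 496 to 786 FPKM against 233 to 369), and *Cma1*, a mast cell chymase, was at 0 in every young library. The listed counts past the limits were 6 of 7 erythroid genes (of 15; summed 1540 to 2440 against 815 to 1130 FPKM), 4 of 6 megakaryocyte genes (of 19; 274 to 502 against 177 to 245), and 3 of 4 neutrophil genes (of 14; 6610 to 9710 against 3320 to 4220). For monocytes they were 2 of 3 (of 14; 264 to 427 against 168 to 289 FPKM). *H2-Aa* was the 1 dendritic cell gene of 15 (87.2 to 102 against 43.7 to 70.9 FPKM) and *Igll1* the 1 B lineage gene of 16 (0.914 to 2.69 against 0 to 1.05 FPKM), and both were past the limits. Under the median ratio and under column totals, these counts fell to 1 and 1 of 4 HSC genes, 4 and 4 of 7 mast cell and basophil genes, 1 and 2 of 7 erythroid genes, 1 and 1 of 6 megakaryocyte genes, 0 and 0 of 4 neutrophil genes and 1 and 1 of 3 monocyte genes. *H2-Aa* was past the limits under neither, and *Igll1* under both. Of all 1043 listed genes, 124 and 151 were past the limits as higher under these 2 scalings. *Gpr183* and *Cd38* are known from B cells and myeloid cells too, and the part of such cells in their differences was not tested.

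*Gpr183* was the only member listed in the *Clu* knockout comparison. The guides used there are shown because that comparison is defined by them. They target *Clu*, which encodes the chaperone clusterin and also lies on chromosome 14 (65968483 to 65981547, plus strand), and all 3 were delivered together. The capitals mark the adjoining PAM in the *Clu* transcript.

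Clu guide 1: gagattcagaacgccgtccaGGG
Clu guide 2: agtgtgtaacgagaccatgaTGG
Clu guide 3: aacatgttgtggaagctcggAGG

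Guide 1 matched coding exon 3 (65973360 to 65973379, plus strand), guide 2 coding exon 4 (65974896 to 65974915, plus strand) and guide 3 coding exon 5 (65975875 to 65975894, minus strand). *Clu* itself is not among the 583 listed genes, so the knockout could not be checked in these libraries. In the ageing table *Clu* was at 8.16, 4.1, 1.3 and 9.03 FPKM in o_Tx and at 4.18, 1.64 and 0.717 FPKM in y_Tx, and the groups overlapped (log2 difference 1.0, SE 0.52, unadjusted limma p 0.0831, adjusted p = 0.108).

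*Gpr183* was lower in the *Clu* knockout libraries. It was at 2.32, 1.61, 1.63 and 1.89 FPKM in o_sgClu replicates 1 to 4 and at 2.93, 4.18 and 3.32 FPKM in o_sgCtrl replicates 1 to 3. All knockout libraries were below all control libraries. The means were 1.86 ± 0.332 (SD, n = 4) and 3.48 ± 0.638 FPKM (SD, n = 3), with a log2 difference of -0.64 (SE 0.15, limma adjusted p = 0.0109, exact permutation p = 0.0571). The limits were passed in that direction by 50.1% of the 583 genes, by 48.2% with adjusted p-values, and 52.5% had groups free of overlap and *Gpr183* is read against these shares. The median difference of all listed genes was -0.52. When libraries were rescaled by the median ratio, *Gpr183* differed by -0.19 (limma adjusted p = 0.445). With equal column totals it differed by -0.22 (limma adjusted p = 0.398), and it was not past the limits in either. Over all listed genes, those past the limits as lower fell from 292 to 59 and 70. Both scalings rest on genes chosen as changed, with 292 lower against 90 higher. A call lost under them does not show that *Gpr183* did not differ. Leaving out 1 library at a time kept *Gpr183* past the limits, between -0.73 and -0.53.

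**Figure D4:**
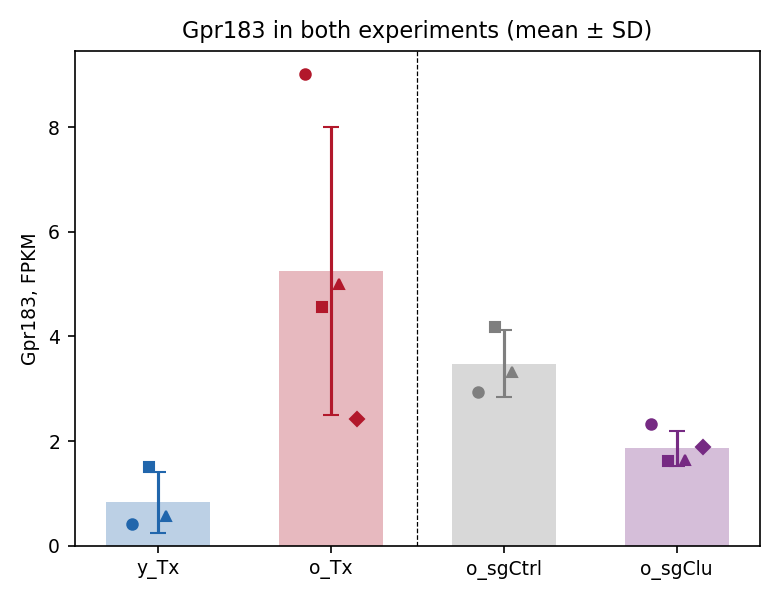
*Gpr183* level (y axis, FPKM) in the 4 groups, with bars for the mean, error bars for the SD and points for libraries, shaped by replicate number. The dashed line separates the 2 comparisons, which were fitted separately here. Old libraries lie above young ones and knockout libraries below their controls.

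Of the 27 oxysterol and chemoattractant receptor genes, *S1pr1*, a receptor for sphingosine 1-phosphate, was listed in both tables. It was lower in o_sgClu (-0.71, SE 0.18, limma adjusted p = 0.0135) with 2.58 to 4.15 FPKM against 5.12 to 6.89 FPKM, and rescaling took it to -0.20, where it was no longer past the limits. In the ageing table it differed by 0.52 (SE 0.25, limma adjusted p = 0.0893) and was not past them. *Ccr1*, a chemokine receptor, was listed only in the ageing table and differed by 0.39 (SE 0.32, limma adjusted p = 0.275). Of markers of other cells in the knockout table, *Ccl5* (NK and T cells) was at 1.11 to 7.23 FPKM in o_sgClu and at 6.29 to 17.8 FPKM in o_sgCtrl, and *Ly6c2* and *Cd14* of monocytes summed to 110 to 178 against 245 to 337 FPKM. *S100a8* and *S100a9* of neutrophils summed to 8.42 to 51.8 against 16.1 to 177 FPKM, *Plek* of megakaryocytes was at 9.67 to 14.6 against 21.3 to 24.2 FPKM, and *Tpsb2* and *Mcpt4* of mast cells were at 0 in all o_sgClu libraries against 0 to 42.5 FPKM. No gene of the T cell, B cell, dendritic cell or erythroid lists was listed. The part of such cells in the *Gpr183* difference was not tested. The genes nearest in profile to *Gpr183* over these 7 libraries were *Hdac4* (0.088), a histone deacetylase, and *Wdr26* (0.093).

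The tables had 53 genes in common, and *Gpr183* was 1 of 26 that were past the limits as higher in o_Tx and as lower in o_sgClu. The 2 comparisons share no libraries, but the genes of both tables had been selected as changed. The limits were passed by 62.5% of the ageing table as higher and by 50.1% of the knockout table as lower. The 26 are to be read against these shares and are not independent evidence. *Procr* was another of the 26, at 4.95 to 11.7 FPKM in o_sgClu and 10.8 to 22.5 FPKM in o_sgCtrl (-0.76, SE 0.32, limma adjusted p = 0.0585), with overlapping groups. *Slamf8*, a relative of *Slamf1*, was the 1 SLAM family gene of the knockout table, at 0 to 0.307 FPKM in o_sgClu and 0.396 to 1.06 FPKM in o_sgCtrl (-0.65, SE 0.17, limma adjusted p = 0.0158). Of the HSC and surface lists, *Fgd5* (-0.63), *Itgav* (-0.72) and *Cd86* (-0.45) were also in that table and were not past the limits. None of the listed genes there came from the NAD, killer cell lectin-like receptor, EHD or scramblase lists.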

How the data were processed

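Bulk RNA-seq of 14 libraries was read from 4 tables, 1 per group. Per the labels and the study's methods, the authors prepared SMART-Seq v4 and Nextera XT libraries and used TrimGalore, Hisat2 (mm10), FeatureCounts and DESeq2. The deposited values were taken as FPKM, as in the study. The headers name no unit, TPM could not be told apart, and the step from counts is not given in the sources used here. The ageing table holds the genes that the authors called higher in old HSCs. The knockout table holds part of the genes they called different in either direction, although *Gm12031* and *Gm17657* stand at 0 FPKM in both groups. Depth is unknown: no read size was shared by more than 5.8% of low genes, so reads could not be recovered.

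Values were analysed as log2(FPKM + 1) with limma 3.58.1 (R 4.3.3) over all 1043 or 583 genes, groups only, Benjamini-Hochberg adjusted. Limits were unadjusted p under 0.05 and a difference past 0.5. Exact permutation tests covered single genes. Fits were tested on simulated data. With a log2 difference of 1 in the ageing table, 178 of 200 changed genes were recovered and 42 of 843 unchanged genes were called. Every gene's mean was raised by the size tested, so genes near 0 FPKM were not covered. Deviations of same-numbered o_Tx and y_Tx libraries correlated over genes (r = 0.405, 0.163 and 0.161), but o_Tx replicate 4 and y_Tx replicate 3 reached 0.191. A pairing by number is therefore uncertain, and the number was used as a block only as an alternative. The block gives no weight to o_Tx replicate 4, so its differences equal those without that library. The pairing comes from these values, as no label states it. Named genes were the members, *Clu*, listed genes of 17 gene lists past the limits (up to 4 per list by size) and the 2 nearest profiles. Other named genes, and the ratio to *Plscr1*, were chosen after their values were seen. The members and lists were chosen with earlier results of these data known. Alternatives covered pseudocount, filter, scaling, variance trend, block, limits and libraries left out. Sequences came from RefSeq tables and the study's guide list, and positions from GENCODE M21, which matched 97.6% and 98.1% of listed names.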

Additional observations from a re-analysis of the deposited data

How the results depend on the processing

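The 6 members in the ageing comparison, and *Gpr183* in the knockout, kept their direction under every alternative run. The share of all listed genes that did so was not counted. *Plscr2*, *Gpr183* and *Klrb1c* in the ageing comparison stayed past the limits in all 15 alternatives each. By construction, an adjusted p limit of 0.05 dropped *Slamf1* (0.75) and *Ehd3* (0.57), and a fold limit of 1 dropped *Slamf1* (0.75), *Ehd3* (0.57) and *Gpr183* in the knockout (-0.64). The median ratio dropped *Slamf1* (0.21), *Ehd3* (0.20) and *Gpr183* in the knockout (-0.19), and equal column totals did the same (0.31, 0.28 and -0.22). The replicate block lost *Slamf1* (0.67) and gained *Cd38* (0.60), and a pseudocount of 0.1 gained *Cd38* (1.17). The block changed no other call of a member in the ageing comparison. The number of members past the limits was 3 under both rescalings, without y_Tx replicate 1, and with either stricter limit. With 1 library left out, differences ranged from 0.46 to 1.10 for *Slamf1*, 0.45 to 0.68 for *Ehd3*, 0.30 to 0.60 for *Cd38*, 1.45 to 1.97 for *Gpr183*, 0.99 to 1.43 for *Klrb1c* and 2.90 to 3.18 for *Plscr2*, and the members past the limits from 3 to 5. A filter of 1 FPKM removed *Cd38*.

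Genes higher in o_Tx numbered 652, but 124 with the median ratio, 151 with column totals, 389 with adjusted p, 197 with a fold limit of 1, and between 405 (without y_Tx replicate 3) and 655 with 1 library left out. Genes lower in o_Tx numbered 10, but 54, 40 and 2 with the median ratio, column totals and a fold limit of 1. In the knockout, lower genes numbered 292, but 59, 70 and 69 under these 3, and higher genes 90, but 7 under a fold limit of 1. Same-numbered knockout and control libraries did not deviate together (r = -0.103, 0.073 and 0.058), and a replicate block gave *Gpr183* -0.65 (unadjusted limma p = 0.0243), 65 genes higher and 270 lower. Counted by size of the difference in place of doubling the tail, the exact test gave 0.0286 for *Plscr2*, *Ehd3* and *Gpr183* in the knockout. With FPKM only, the counting error of genes near 1 FPKM is unknown.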
